A study of Capra hircus with 13 samples.

Results

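The genes of ubiquitin transfer described here are the 57 genes whose names begin with UBE2 (32 genes), with ANAPC and a number (10 genes), with CUL and a number (8 genes) or with UBA and a number (7 genes), out of 18138 names listed in all 5 tables of values. The rule itself uses gene names alone, though these names were picked with earlier results of the same data known. RNA-seq libraries were made by Smart-seq2 from polyA RNA of goat (*Capra hircus*) oocytes and embryos, with 3 libraries of untreated MII oocytes (mature oocytes, before fertilization), 3 of untreated 4-cell stage embryos and 3 of untreated 8-cell stage embryos. A second set holds 4 libraries of 8-cell stage embryos, 2 controls and 2 after *YTHDF2* siRNA. The sample labels call the controls WT and name no injection. They are taken here as embryos given negative control (NC) siRNA, the control that the paper names for its knockdown experiments. In this set a mixture of siRNAs against *YTHDF2* at 20 µM went into the cytoplasm of fertilized embryos 8 h after *in vitro* fertilization (IVF), and the NC was a universal control siRNA whose concentration is not given in the sources used here. The oocytes were matured *in vitro* from slaughterhouse ovaries, embryos were pooled for each injected library, and the breed and age of the animals are not given in the sources used here. YTHDF2 is a cytoplasmic protein that binds mRNA carrying N6-methyladenosine and is known for promoting its decay. The untreated reads came from previous studies of the authors, and which library came from which study is not given in the sources used here. Stage and study therefore cannot be told apart in any comparison between the untreated stages. The deposited MII table lists 18957 rows and those of the untreated embryos 22107 each. Nothing states whether the replicates came from separate fertilizations, so the p-values measure the spread between these libraries, which may be technical.

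Ubiquitin is activated by an E1 enzyme, handed to an E2 conjugating enzyme, and placed on a target protein with the help of an E3 ligase, after which many targets are degraded by the proteasome. The largest E3 families are built on cullins, scaffold proteins that carry a RING subunit and are switched on when the ubiquitin-like protein NEDD8 is attached to them. The anaphase-promoting complex (APC/C) is a related RING ligase that destroys cyclin B and securin, and an MII oocyte is arrested by inhibition of this complex until fertilization releases it. During the maternal-to-zygotic transition (MZT) stored maternal proteins and mRNAs are cleared while the genome of the embryo becomes active. Not every gene with these names is an enzyme of ubiquitin. *UBA2*, *UBA3* and *UBA7* encode E1 proteins of the ubiquitin-like proteins SUMO, NEDD8 and ISG15, *UBE2M* and *UBE2F* encode the E2 enzymes of NEDD8, and *UBE2V1* and *UBE2V2* encode E2 variants without a catalytic cysteine.

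The values are FPKM, fragments scaled to exon length and to the mapped fragments of the library, so levels of different genes can be set side by side per length. In the untreated libraries 22239054 to 27613301 fragments lay on the shared names, while no such depth could be read from the injected values. Replicates correlated (Pearson, log2 scale) by 0.946 to 0.977 in MII oocytes, 0.964 to 0.978 in 4-cell and 0.947 and 0.951 in the injected groups, while 8-cell replicate 1 stood apart from 8-cell replicates 2 and 3 (0.854 and 0.898, against 0.966 between them). *YTHDF2* itself was decreased by the siRNA (log2 fold change -4.25, SE 0.43, limma adjusted p = 0.00037). Oocyte markers were present in the MII libraries, with a summed 1545 to 2500 FPKM over 9 listed genes, beside 26.6 to 45.9 FPKM for cumulus and granulosa markers and 0.216 to 0.99 FPKM for sperm markers. In these pooled samples fewer embryos with a transcript and less of it per embryo cannot be told apart. The FPKM of the shared names summed to 277140 to 289023 in the MII libraries and to 373280 to 431388 in the embryo libraries, and the median log2 fold change over all 9090 genes tested was 0.29 in 4-cell and 0.37 in 8-cell embryos compared to the MII oocytes. The changes below include this shift, and the effect of other scalings is given beside the counts.

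The 57 genes differed in level by several orders of magnitude within each library. In the untreated libraries *UBE2D3*, an E2 that works with many E3 ligases, was the highest of them, with 904, 974 and 980.2 FPKM in the 3 MII libraries, 1313, 1512 and 1673 FPKM in the 4-cell libraries and 2462, 2820 and 2126 FPKM in the 8-cell libraries. It made up 52.8 to 64.6% of the summed FPKM of all 32 UBE2 genes there. In the MII oocytes *ANAPC11*, the RING subunit that makes the APC/C a ligase, came next at 281.7 ± 78.9 FPKM (SD, *n* = 3), followed by *ANAPC15* at 210.2 ± 19.5 and *UBE2C* at 166 ± 31.2 FPKM, whose libraries overlap with those of their neighbours in this order. At both embryo stages *ANAPC15* came next after *UBE2D3*, at 821.5 ± 217 and 824 ± 216 FPKM, above *ANAPC11* at 297 ± 122 and 387 ± 106 FPKM. No cullin reached such a level: *CUL4B*, the highest in the MII oocytes, was at 28.9 ± 5.00 FPKM there. The other members of the UBE2 group without *UBE2D3* and *UBE2C* summed to 515 to 670.5 FPKM in the MII, 901.5 to 961 in the 4-cell and 943.5 to 986 FPKM in the 8-cell libraries.

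**Figure D1:**
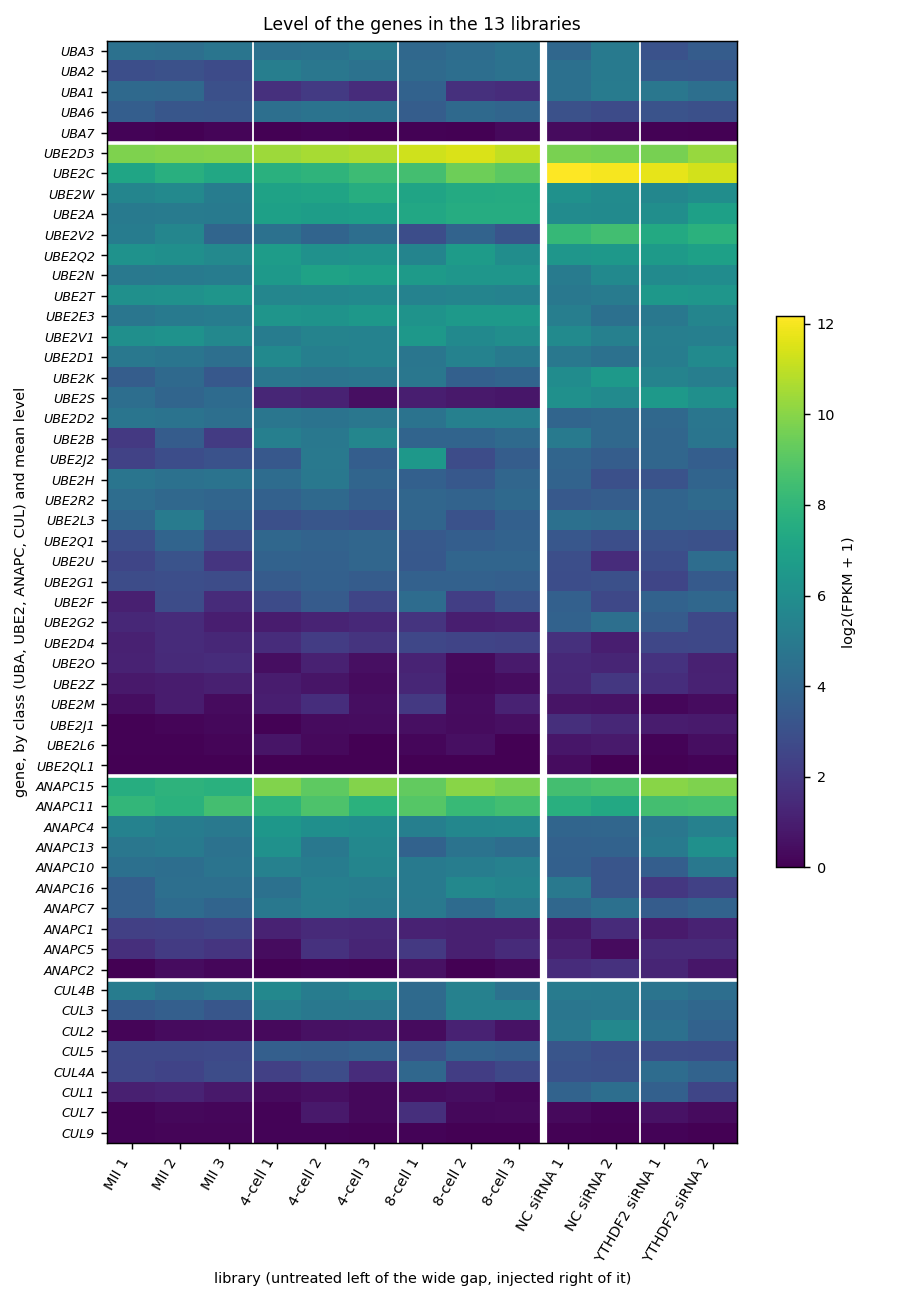
Levels of 54 of the 57 genes (rows, by class and mean level) in the 13 libraries (columns), coloured by log2(FPKM + 1), with untreated libraries left of the wide gap and injected libraries right of it. *UBE2D3* is the brightest row in the untreated libraries and *UBE2C* in the injected ones, where *UBE2C* lies between 2587 and 4585 FPKM.

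Several members were near or below the limit used for testing, a mean of 1 FPKM over the libraries of a fit. Of the 57 genes, 47 passed it in the untreated libraries, 51 in the injected libraries and 46 in both, and 5 passed in neither (*CUL7*, *CUL9*, *UBA7*, *UBE2L6* and *UBE2QL1*). The 10 untested genes of the untreated libraries also include *CUL1*, *CUL2*, *ANAPC2*, *UBE2J1* and *UBE2Z*, and *UBE2M* was the further gene not tested in the injected libraries. *CUL1*, the scaffold of SCF ligases, was at 1.09, 1.32 and 0.77 FPKM in the MII oocytes and between 0.161 and 0.417 FPKM in the 6 untreated embryo libraries. *ANAPC2*, the cullin-like subunit that holds *ANAPC11*, did not exceed 0.482 FPKM in any untreated library. *UBE2QL1* had 0 to 2 fragments in each of them. Within the groups, 8-cell replicate 1 was the library most unlike its fellows for *UBE2J2* (89.3 FPKM, against 6.06 and 11.2), *CUL4A*, a scaffold of ligases with DDB1 (15.4, against 3.57 and 5.13), and *UBE2F* (18.7, against 3.85 and 7.71).

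Summed by class, the APC/C subunits were at 616 ± 71.1 FPKM in the MII oocytes, 1343 ± 111 in 4-cell and 1380 ± 127 FPKM in 8-cell stage embryos, and the libraries of the oocytes and embryos did not overlap (574 to 698 against 1215 to 1499). UBE2 genes summed to 1716 ± 112, 2682 ± 268 and 3977 ± 470 FPKM, with no overlap between any of the 3 stages. For cullins the sums were 51.0 ± 3.95, 88.7 ± 11.9 and 80.1 ± 19.8 FPKM, and for *UBA1*, *UBA2*, *UBA3*, *UBA6* and *UBA7* together 52.0 ± 5.73, 78.4 ± 1.68 and 59.9 ± 2.81 FPKM. These sums follow their most abundant genes and were not tested.

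At the 4-cell stage 13 of the 47 genes tested were higher and 4 lower than in the MII oocytes, by a limma adjusted p under 0.05 together with a difference above 2-fold. That is 27.7% and 8.51% of the genes, beside 15.4% and 5.09% of all 9090 genes tested by the same rule. The median log2 fold change was 0.63 for the 47 genes and 0.29 for all genes. By class, 7 UBE2 genes were higher and 2 lower of 28, 2 ANAPC genes were higher and 1 lower of 9, 2 UBA genes were higher and 1 lower of 6, and 2 cullins were higher of 4. At the 8-cell stage 13 genes were again higher and 4 lower than in the MII oocytes, beside 18.5% and 7.58% of all genes, with a median of 0.46 against 0.37. Both comparisons use the same MII libraries. Of the genes called higher, both stages shared 9, with 4 more in 4-cell and 4 more in 8-cell embryos, and of those called lower they shared 2, with 2 more in each. The balance of the calls depended on the scaling: with median-of-ratios rescaling 9 genes were higher and 8 lower at each stage, beside 8.18% and 8.78% of all genes in 4-cell and 11.5% and 11.7% in 8-cell embryos. With equal FPKM sums over the shared names 6 were higher and 8 lower in 4-cell embryos, beside 5.95% and 10.1% of all genes, and 8 and 7 in 8-cell embryos, beside 10.4% and 11.9%. With no limit on the fold, 18 genes were higher and 6 lower at the 4-cell stage, beside 24.7% and 6.42% of all genes, and 17 and 6 at the 8-cell stage, beside 27.3% and 10.0%. By an unadjusted p under 0.05 and more than 2-fold, the rule of the study, 13 and 4 genes passed in 4-cell embryos, beside 16.7% and 6.06%, and 14 and 5 in 8-cell embryos, beside 19.8% and 8.14%. Without 8-cell replicate 1, where 45 members were tested, 14 were higher and 4 lower in 4-cell embryos, beside 17.0% and 6.61% of all genes, and 14 and 5 in 8-cell embryos, beside 19.4% and 10.1%.

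**Figure D2:**
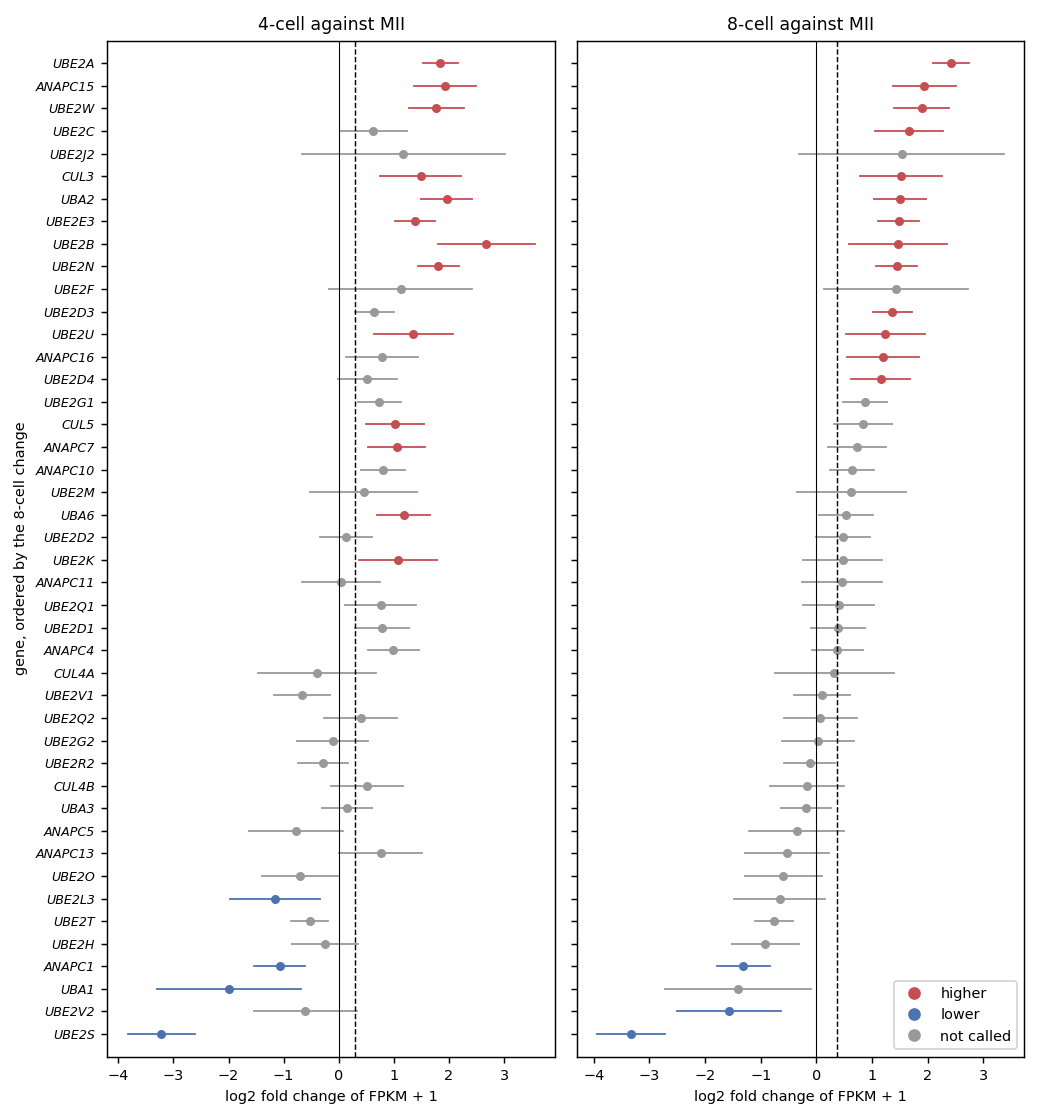
Log2 fold change of FPKM + 1 (x axis) of 44 of the 47 genes tested, with 95% confidence intervals, at the 4-cell (left) and 8-cell stage (right) compared to the MII oocytes, ordered by the 8-cell change, where the dashed line is the median of all genes tested and colours mark the calls. *UBE2A*, *ANAPC15* and *UBE2W* lie on the higher end at the 8-cell stage (2.42, 1.93 and 1.89) and *UBE2S* on the lower end of both panels (-3.22 and -3.33).

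Among the E1 genes *UBA2* was called higher at both embryo stages, and *UBA6* was called higher and *UBA1* lower at the 4-cell stage. *UBA2*, the catalytic subunit of the SUMO E1, was at 6.58, 7.01 and 5.81 FPKM in the MII oocytes, 35.3, 27.2 and 22.9 FPKM in 4-cell and 17.6, 20.3 and 22.6 FPKM in 8-cell embryos. All 6 embryo libraries lay above the oocytes, with a change of 1.96 on the log2 scale (SE 0.21, limma adjusted p = 0.00025) and 1.50 (adjusted p = 0.00061). *UBA6*, the second E1 that can load ubiquitin, was at 11.6, 8.43 and 8.09 FPKM in the oocytes, 20.5, 23.7 and 22.6 FPKM in 4-cell and 10.9, 16.7 and 14.5 FPKM in 8-cell embryos. It was higher at the 4-cell stage (1.18, SE 0.22, limma adjusted p = 0.0035) but below 2-fold with either rescaling (0.83 and 0.68), and the 8-cell libraries overlapped the oocytes. *UBA1*, the main E1 of ubiquitin, was at 17.0, 16.3 and 6.86 FPKM in the oocytes, at 2.18, 3.15 and 1.92 FPKM at the 4-cell stage, and at 13.1, 2.17 and 1.90 FPKM at the 8-cell stage, where replicate 1 lay with the oocytes.

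The fall of *UBA1* at the 4-cell stage (log2 fold change -1.996, SE 0.58, limma adjusted p = 0.028) did not pass an adjusted p of 0.05 without MII replicate 1 or 2 (0.10 and 0.078), without 4-cell replicate 1, 2 or 3 (0.081, 0.052 and 0.085), or with no filter on low values (0.069). At the 8-cell stage it was not called (-1.41, adjusted p = 0.085), but it passed with either rescaling (-1.75 and -1.79) and without 8-cell replicate 1 (-2.15, adjusted p = 0.0018). *UBA3*, the catalytic subunit of the NEDD8 E1, showed no call at either stage, at 22.7 ± 2.45, 25.3 ± 3.91 and 19.9 ± 3.82 FPKM, with 95% intervals of -0.30 to 0.60 and -0.64 to 0.26.

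The E2 genes that rose include both mammalian counterparts of yeast RAD6, which ubiquitinates histone H2B and takes part in tolerance of DNA damage. *UBE2A* was at 31.0, 32.4 and 30.6 FPKM in the MII oocytes, 121, 107 and 116 FPKM in 4-cell and 154, 182 and 181 FPKM in 8-cell embryos. Replicates lay close together and the 3 stages did not overlap, with a rise of 1.84 on the log2 scale (SE 0.14, limma adjusted p = 6.8e-05) in 4-cell and 2.42 (adjusted p = 7e-06) in 8-cell embryos. *UBE2B* was at 3.03, 10.8 and 3.27 FPKM in the oocytes, 36.7, 28.6 and 46.6 FPKM in 4-cell and 13.9, 14.3 and 17.6 FPKM in 8-cell embryos. Its 4-cell level was the highest of the 3 stages in every library, with 2.68 (SE 0.39, adjusted p = 0.0012) in 4-cell and 1.47 (adjusted p = 0.016) in 8-cell embryos. The 8-cell call of *UBE2B* had an adjusted p of 0.065 without MII replicate 1, 0.060 without MII replicate 3, 0.056 without 8-cell replicate 3 and 0.057 with equal FPKM sums.

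*UBE2N*, which builds ubiquitin chains used in signalling and DNA repair together with a UBE2V partner, was at 29.0, 31.7 and 33.5 FPKM in the MII oocytes, 95.5, 128 and 116 FPKM in 4-cell and 96.6, 82.7 and 81.5 FPKM in 8-cell embryos (log2 fold change 1.81 and 1.44, SE 0.16, limma adjusted p = 0.00014 and 0.00025). Neither of its partners was called higher. *UBE2V1* was at 64.5, 73.1 and 51.0 FPKM in the oocytes, 34.0, 42.8 and 40.5 FPKM in 4-cell and 88.5, 52.9 and 63.5 FPKM in 8-cell embryos, and was not called at either (-0.66, adjusted p = 0.049, and 0.10, adjusted p = 0.76), though either rescaling called it lower at the 4-cell stage (-1.03 and -1.19). *UBE2V2* was at 33.0, 47.3 and 14.6 FPKM, then 21.8, 13.9 and 20.2 FPKM, then 6.44, 13.6 and 8.01 FPKM. It was lower at the 8-cell stage (-1.57, SE 0.41, adjusted p = 0.015), with an adjusted p of 0.057 without MII replicate 1 and 0.052 without 8-cell replicate 3.

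*UBE2W*, an E2 that can attach ubiquitin to the amino end of a protein, was at 44.9, 51.8 and 33.4 FPKM in the oocytes, 126, 137 and 188 FPKM in 4-cell and 137, 169.5 and 178 FPKM in 8-cell embryos. *UBE2E3* was at 26.1, 31.7 and 33.3 FPKM, then 79.5, 75.6 and 87.7 FPKM, then 76.0, 91.3 and 92.2 FPKM. Both genes thus reached their embryo level by the 4-cell stage, with log2 fold changes of 1.77 and 1.89 for *UBE2W* (SE 0.22, limma adjusted p = 0.00054 and 0.00027) and of 1.39 and 1.48 for *UBE2E3* (SE 0.16, adjusted p = 0.00045 and 0.00021), and between the embryo stages they differed by 0.11 and 0.09 (adjusted p = 0.78 and 0.76). For *UBE2E3* the 4-cell change was 0.86 with equal FPKM sums, below 2-fold. *UBE2U* was at 4.89, 7.58 and 2.72 FPKM in the oocytes, 13.1, 12.6 and 15.4 FPKM in 4-cell and 9.17, 14.7 and 14.5 FPKM in 8-cell embryos (1.36 and 1.24, SE 0.32, adjusted p = 0.010 and 0.013). The call of *UBE2U* was lost at the 8-cell stage with either rescaling (0.92 and 0.88), without MII replicate 3 (0.93) and without 8-cell replicate 3 (adjusted p = 0.0503), and at the 4-cell stage with equal FPKM sums (0.89).

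The UBE2D genes encode E2 enzymes of broad use, which can start ubiquitin chains on targets of RING ligases including cullins and the APC/C. *UBE2D3* was not called at the 4-cell stage (log2 fold change 0.65, SE 0.16, limma adjusted p = 0.013, less than 2-fold) and was higher at the 8-cell stage (1.36, adjusted p = 0.00026). With median-of-ratios rescaling the 8-cell change was 0.98 and with equal FPKM sums 0.94, below 2-fold in both. *UBE2D4* was at 1.15, 1.82 and 1.59 FPKM in the oocytes, 1.94, 3.44 and 2.52 FPKM in 4-cell and 4.92, 4.57 and 4.26 FPKM in 8-cell embryos, where it was called (1.16, SE 0.24, adjusted p = 0.0045) except with either rescaling (0.89 and 0.87). *UBE2D1* and *UBE2D2* stayed below 2-fold at both stages, at 24.8 ± 3.58 and 23.5 ± 2.54 FPKM in the oocytes and 33.0 ± 6.95 and 33.6 ± 8.36 FPKM at the 8-cell stage. *UBE2D2* and *UBE2D3* encode near-identical proteins, and only uniquely mapped reads were kept. Whether reads were lost from either gene was not tested.

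*UBE2C* encodes the E2 that starts ubiquitin chains on APC/C targets, and *UBE2S* the E2 that extends them. *UBE2C* was at 141, 201 and 155 FPKM in the MII oocytes, 208, 243 and 324 FPKM in 4-cell and 363, 723 and 544 FPKM in 8-cell embryos, and no 2 stages overlapped. It was higher at the 8-cell stage (log2 fold change 1.67, SE 0.27, limma adjusted p = 0.0014) and not called at the 4-cell stage (0.63, adjusted p = 0.11). *UBE2S* was at 19.8, 14.5 and 18.2 FPKM in the oocytes, 1.49, 1.23 and 0.392 FPKM in 4-cell and 1.05, 0.792 and 0.668 FPKM in 8-cell embryos. Behind these values stand 683 to 1031 fragments in each MII library, 15 to 57 in each 4-cell library and 27 to 38 in each 8-cell library. The fall of *UBE2S* was the furthest of all 47 genes tested at both stages (-3.22 and -3.33, SE 0.27, adjusted p = 0.0001 and 5.1e-05), and its mean FPKM in the embryos was 0.0592 and 0.0478 times that in the oocytes.

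**Figure D3:**
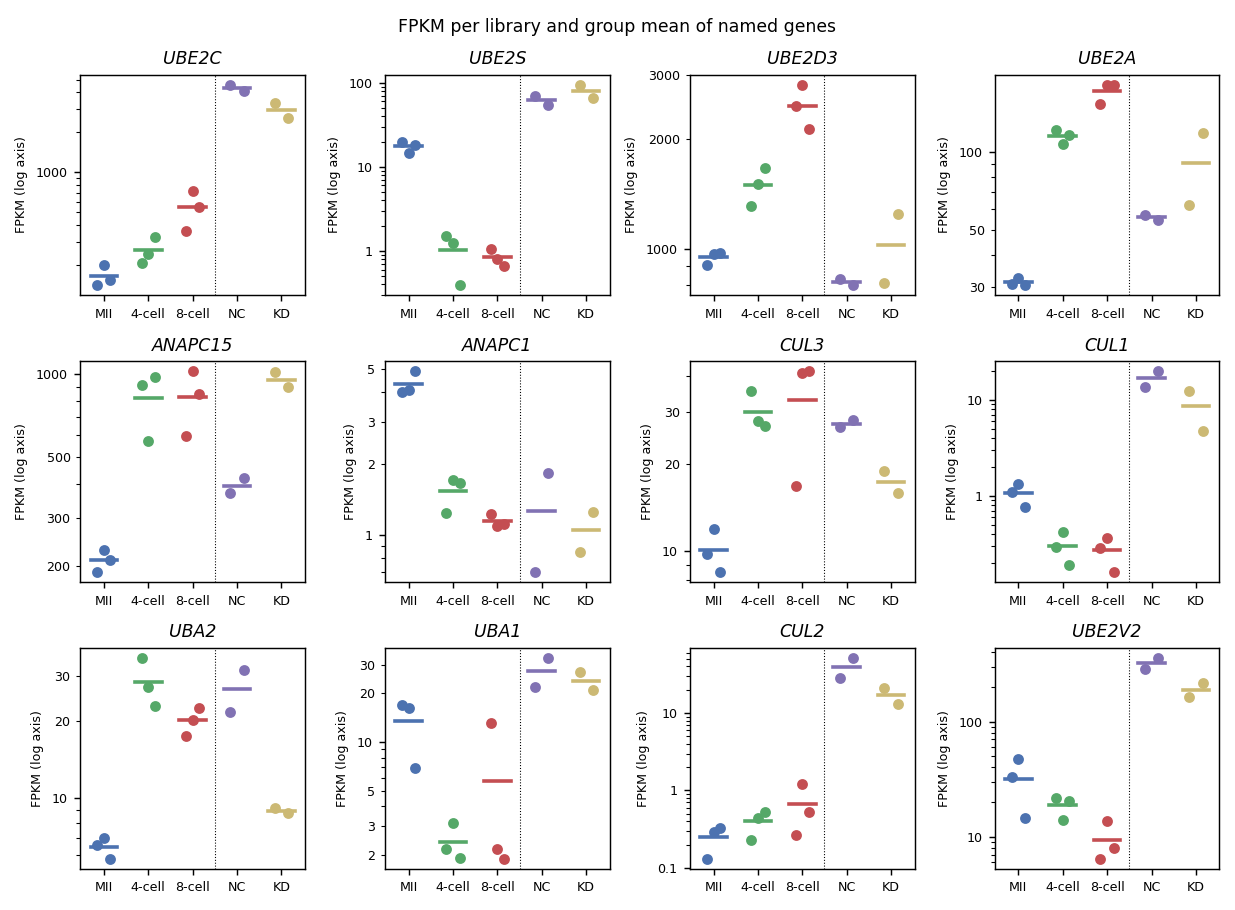
FPKM on a log axis of named genes in each library (points) with the group mean (lines), for MII oocytes, 4-cell and 8-cell stage embryos left of the dotted line and for NC and *YTHDF2* siRNA (KD) 8-cell stage embryos right of it. *UBE2C* and *UBE2S* part between oocytes and untreated embryos, and *CUL1*, *CUL2* and *UBE2V2* are far higher in the injected than in the untreated 8-cell stage embryos.

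Of the other E2 genes, *UBE2K*, which extends chains that mark proteins for degradation, was at 10.9, 16.7 and 9.05 FPKM in the oocytes, 26.8, 24.5 and 26.7 FPKM in 4-cell and 27.5, 12.2 and 14.0 FPKM in 8-cell embryos. Its 4-cell call (log2 fold change 1.07, SE 0.31, limma adjusted p = 0.029) was lost with either rescaling (0.72 and 0.56), with no filter on low values (adjusted p = 0.059), without MII replicate 1 or 3 (0.093 and 0.10) and without 4-cell replicate 1, 2 or 3 (0.081, 0.060 and 0.079). *UBE2L3*, which serves HECT and RBR ligases, was at 14.8, 32.3 and 12.2 FPKM in the oocytes, 6.71, 8.56 and 7.50 FPKM in 4-cell and 14.6, 7.42 and 12.3 FPKM in 8-cell embryos. The 4-cell fall of *UBE2L3* (-1.15, SE 0.36, adjusted p = 0.037) was lost without MII replicate 1 or 2 (0.064 and 0.094, the latter with a log2 fold change of -0.75). It was also lost without 4-cell replicate 1, 2 or 3 (0.11, 0.066 and 0.091) and without 8-cell replicate 3 (0.054). The same held with no filter (0.078) and with the replicate number as a block (0.071). The E2 genes of NEDD8 were low and variable, with *UBE2M* at 0.508 ± 0.317, 1.14 ± 0.855 and 1.53 ± 1.37 FPKM and *UBE2F* at 3.06 ± 2.75, 6.99 ± 2.87 and 10.1 ± 7.72 FPKM, and neither was called. Among genes not called, the furthest upward changes at both stages were those of *UBE2J2* and *UBE2F* (1.53 and 1.42 at the 8-cell stage, 95% intervals -0.31 to 3.37 and 0.13 to 2.72). These values depended on single libraries. Without 8-cell replicate 1 they were 0.43 and 0.89, and without 8-cell replicate 2 they were 2.27 and 1.90 and both genes were called (limma adjusted p = 0.047 and 0.030). *UBE2F* was also called without MII replicate 2 (1.94, adjusted p = 0.026), and *UBE2J2* at the 4-cell stage without 8-cell replicate 1 (1.17, adjusted p = 0.047).

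Within the APC/C, *ANAPC15*, a small subunit known for turnover of the mitotic checkpoint complex, rose most. It was at 191, 229.8 and 210.2 FPKM in the MII oocytes, 917, 573 and 974 FPKM in 4-cell and 596, 1025 and 852 FPKM in 8-cell embryos, and every embryo library exceeded every oocyte library. The log2 fold change was 1.93 at both stages (SE 0.25, limma adjusted p = 0.00069 and 0.00048). *ANAPC1*, the large scaffold subunit, fell from 4.01, 4.09 and 4.89 FPKM to 1.24, 1.70 and 1.65 FPKM in 4-cell and 1.22, 1.09 and 1.11 FPKM in 8-cell embryos (-1.07 and -1.31, SE 0.21, adjusted p = 0.0046 and 0.0013), and was below 2-fold at the 4-cell stage without 4-cell replicate 1 (-0.99). *ANAPC7*, of the arm that binds coactivators, was at 12.0, 18.1 and 13.9 FPKM in the oocytes, 28.1, 35.6 and 29.7 FPKM in 4-cell and 29.0, 18.3 and 27.8 FPKM in 8-cell embryos. It was called at the 4-cell stage (1.05, adjusted p = 0.0084) but stayed below 2-fold with either rescaling (0.69 and 0.54), without MII replicate 1 (0.92) and without 4-cell replicate 2 (0.95).

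*ANAPC16* was at 11.9, 20.9 and 20.8 FPKM in the oocytes, 22.3, 37.2 and 34.1 FPKM in 4-cell and 31.6, 50.6 and 43.2 FPKM in 8-cell embryos. It was called at the 8-cell stage (log2 fold change 1.20, SE 0.29, limma adjusted p = 0.010), but not with either rescaling (0.83 and 0.79) or without MII replicate 1 (0.94). *ANAPC11* was not called at either stage (0.04 and 0.46, 95% intervals -0.67 to 0.75 and -0.25 to 1.17). *ANAPC10*, which helps to bind substrates, and *ANAPC4*, of the platform of the complex, had an adjusted p under 0.05 at the 4-cell stage with changes of less than 2-fold (0.80 and 0.99). *ANAPC4* lay at the limit and was called higher in 5 of 16 alternatives (1.01 to 1.12). The subunits of this one complex therefore did not share a direction on this scale, with the median of the 9 tested at 0.78 in 4-cell and 0.46 in 8-cell embryos and *ANAPC1* and *ANAPC5* below 0 at both.

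Of the cullins, *CUL3*, the scaffold of ligases with BTB adaptors, was at 9.82, 11.9 and 8.51 FPKM in the MII oocytes, 35.4, 28.0 and 26.9 FPKM in 4-cell and 16.7, 40.8 and 41.3 FPKM in 8-cell embryos. It rose at both stages (log2 fold change 1.49 and 1.52, SE 0.33, limma adjusted p = 0.0081 and 0.0059), the first of these falling just under 2-fold with equal FPKM sums (0.98, adjusted p = 0.052). *CUL5*, a scaffold of ligases with SOCS-box adaptors, was at 5.16, 5.27 and 5.46 FPKM, then 11.9, 10.9 and 12.5 FPKM, then 7.07, 13.1 and 11.4 FPKM. Its 4-cell change (1.02, SE 0.23, adjusted p = 0.0095) lay at the 2-fold limit and fell below it with either rescaling (0.69 and 0.55) and without 4-cell replicate 3 (0.98), while the 8-cell change of 0.83 was 1.07 without 8-cell replicate 1. *CUL4B* (28.9 ± 5.00, 41.7 ± 8.27 and 26.8 ± 11.5 FPKM) and *CUL4A* (5.21 ± 0.882, 4.01 ± 2.10 and 8.04 ± 6.45 FPKM) were not called, and *CUL2*, the scaffold of the VHL ligase, stayed at 0.131 to 1.21 FPKM in all 9 untreated libraries.

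Between the 4-cell and the 8-cell stage the calls were about as frequent as over all genes. By the same rule 1 of 47 was higher and 1 lower (2.13% each), beside 2.29% and 3.17% of all genes, with a median log2 fold change of 0.01 against 0.07. *UBE2C* was the one higher (1.04, SE 0.27, limma adjusted p = 0.047), and *ANAPC13*, a small APC/C subunit, the one lower (-1.29, SE 0.34, adjusted p = 0.045), from 69.7, 27.8 and 50.4 FPKM at the 4-cell to 12.9, 23.6 and 19.6 FPKM at the 8-cell stage. The oocytes had 27.2, 31.0 and 22.8 FPKM of *ANAPC13*, and neither comparison with them was called. Both calls sit at the threshold. *UBE2C* kept its call in 6 of 16 alternatives and lost it without 4-cell replicate 1, 2 or 3 (adjusted p = 0.16, 0.11 and 0.072), without 8-cell replicate 2 or 3 (0.098 and 0.12) and without MII replicate 1, 2 or 3 (0.075, 0.054 and 0.072), though its 3 libraries per stage did not overlap. *ANAPC13* kept its call in 3 of 16 and lost it without 4-cell replicate 1 or 3 (0.15 and 0.14), without 8-cell replicate 1, 2 or 3 (0.096, 0.052 and 0.10) and without MII replicate 1, 2 or 3 (0.080, 0.059 and 0.067). *UBE2D3* and *UBE2A* increased by less than 2-fold (0.72 and 0.58, adjusted p = 0.026 and 0.039). With no limit on the fold, 3 genes were higher and 1 lower, beside 3.06% and 5.24% of all genes, and by the rule of the study 1 and 3, beside 4.55% and 4.28%.

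Other genes that work with these enzymes were followed by lists of known partners. Of 13 cullin partners tested, 4 were higher and none lower at the 4-cell stage, and the same counts held at the 8-cell stage. *SKP1*, the adaptor of *CUL1*, was at 1105 to 1354 FPKM in the oocytes and 1710 to 4480 FPKM in the embryos (log2 fold change 1.24 and 1.11), far above *CUL1* itself, and the F-box protein gene *SKP2* (1.38 and 1.59) and the *CUL4* receptor gene *CRBN* (1.91 and 1.74) rose as well. The RING partner *RBX1* was not called (-0.25 and -0.62). Of 19 genes of neddylation and cullin exchange, 5 were higher and 1 lower at each stage. *DCUN1D1*, which promotes NEDD8 transfer to cullins, rose by 2.46 and 2.24. *COPS9*, of the complex that removes NEDD8, fell by 1.14 and 1.81 on the log2 scale. *COPS2*, the other gene of that complex that was called, was higher at both stages (1.16 and 1.09). The calls of *COPS2* were lost with either rescaling, and at the 8-cell stage also without 8-cell replicate 2. *CAND1*, which exchanges the adaptors of cullins, was higher at the 4-cell stage (1.11) and lower in 8-cell than in 4-cell embryos (-1.42).

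Of 12 other APC/C subunits, coactivators and inhibitors, 1 was higher at the 4-cell stage (*CDC16*, 1.09), and at the 8-cell stage 1 was higher (*BUB3*, a checkpoint protein gene, 1.23) and 1 lower (*FBXO5*, which encodes the APC/C inhibitor EMI1, -1.45). The coactivator *CDC20* was at 27.4 to 35.9 FPKM in the oocytes, 13.6, 42.7 and 12.7 FPKM in 4-cell and 101, 10.9 and 24.9 FPKM in 8-cell embryos. It was not called. Among 9 APC/C substrates *CDC6* rose at both stages (1.33 and 1.23), *CCNB2*, a cyclin B gene, and *SGO1* fell at the 8-cell stage (-1.20 and -1.01), and *PTTG1*, the gene of securin, fell from the 4-cell to the 8-cell stage (-1.43). All these list calls used the limma adjusted p over all genes and the 2-fold limit, to which the backgrounds given above apply. With either rescaling *SKP1* and *CDC6* lost their calls at both stages, *CAND1* and *CDC16* at the 4-cell and *BUB3* at the 8-cell stage, and with equal FPKM sums *SKP2* lost its call at the 4-cell stage. *SKP1* kept its call in 10 and 7 of 16 alternatives, *COPS9* at the 4-cell stage in 9 and *PTTG1* in 8. *SGO1* kept its 8-cell call in 13 of 16, losing it without MII replicate 1 and without 8-cell replicate 2 or 3.

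In the injected embryos the question was which transcripts changed with knockdown of *YTHDF2*. At the 8-cell stage 3 of 51 genes tested were higher and 2 lower than with NC siRNA (5.88% and 3.92%), beside 2.06% and 5.92% of all 11004 genes tested, and the median log2 fold change was 0.06 against 0.01. By the rule of the study, an unadjusted p under 0.05 and more than 2-fold, the counts were 9 and 6 (17.6% and 11.8%), beside 9.48% and 15.3% of all genes. The genes called by the adjusted p include 3 subunits of the APC/C, which did not share a direction. *ANAPC13* was at 12.6 and 13.3 FPKM with NC siRNA and at 30.7 and 68.0 FPKM with *YTHDF2* siRNA (log2 fold change 1.75, SE 0.45, limma adjusted p = 0.032). *ANAPC15* was at 369 and 418 FPKM with NC siRNA and at 1020 and 896 FPKM with *YTHDF2* siRNA (1.28, SE 0.36, adjusted p = 0.041). *ANAPC16* was at 29.1 and 8.11 FPKM with NC siRNA and at 2.90 and 4.11 FPKM with *YTHDF2* siRNA (-1.89, SE 0.53, adjusted p = 0.043), where the NC libraries differ from each other by more than the lower of them differs from the knockdown.

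**Figure D4:**
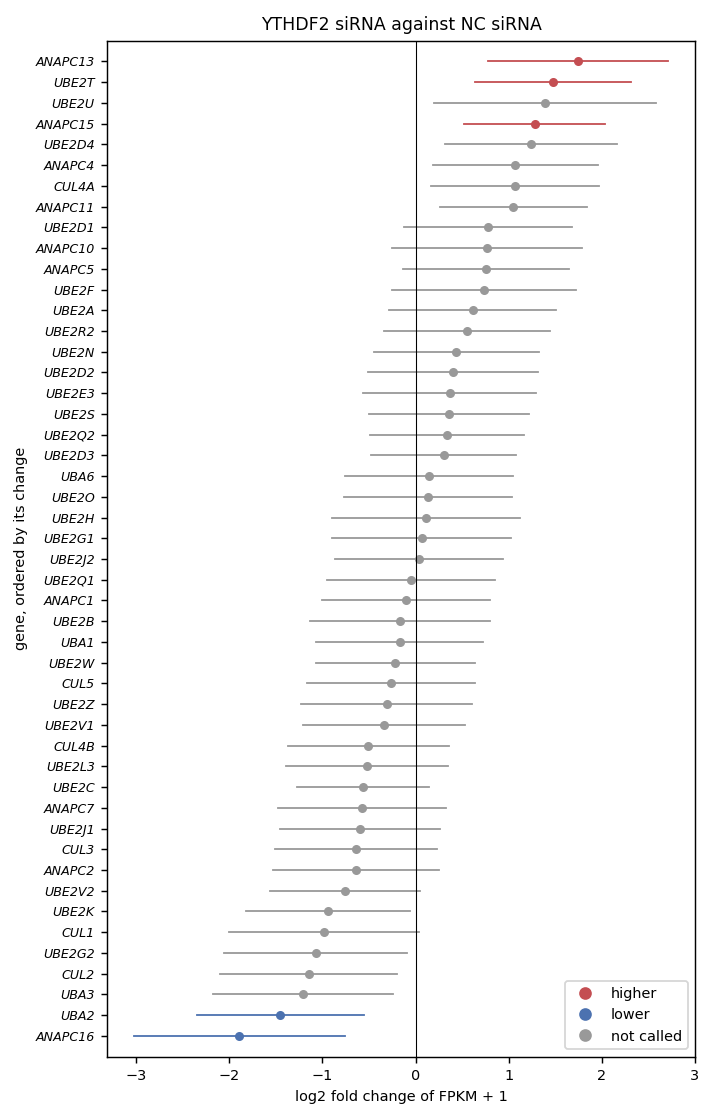
Log2 fold change of FPKM + 1 (x axis) with 95% confidence intervals of 48 of the 51 genes tested in *YTHDF2* siRNA compared to NC siRNA 8-cell stage embryos, 2 libraries each, ordered by the change, where colours mark the calls. Only 5 genes pass, from *ANAPC13* at 1.75 to *ANAPC16* at -1.89, and 34 of the 48 intervals drawn include 0.

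Also called were *UBE2T*, the E2 of the Fanconi anaemia repair pathway, at 28.6 and 32.1 FPKM with NC siRNA and 88.0 and 84.0 FPKM with *YTHDF2* siRNA (log2 fold change 1.47, SE 0.39, limma adjusted p = 0.036), and *UBA2*, at 21.7 and 31.8 FPKM with NC siRNA and 9.14 and 8.77 FPKM with *YTHDF2* siRNA (-1.45, SE 0.42, adjusted p = 0.048). In these 5 genes the 2 groups did not overlap, as was the case for 33 of the 51 genes, beside 61.0% of all genes tested. None of the 5 calls held without NC replicate 1, where the adjusted p were 0.098 for *ANAPC13*, 0.13 for *ANAPC15*, 0.24 for *ANAPC16*, 0.079 for *UBA2* and 0.12 for *UBE2T*. The log2 fold change of *ANAPC16* was then -1.03 in place of -1.89, and -2.75 without NC replicate 2, while those of the other 4 genes were 1.71, 1.19, -1.72 and 1.39 without NC replicate 1. Without NC replicate 2 *ANAPC16* kept its call, with 0.088, 0.11, 0.26 and 0.11 for *ANAPC13*, *ANAPC15*, *UBA2* and *UBE2T*. Without *YTHDF2* siRNA replicate 1 only *ANAPC15* lost it (0.096), and without replicate 2 *ANAPC13*, *ANAPC15*, *UBA2* and *UBE2T* lost it (0.23, 0.13, 0.13 and 0.090). With median-of-ratios rescaling the log2 fold changes were nearly the same but no adjusted p passed 0.05, from 0.060 for *UBE2T* to 0.076 for *ANAPC15*, and with no filter on low values they were 0.17 to 0.22. With the replicate block they were 0.056 to 0.089, and *UBA2* also lost its call with equal FPKM sums (0.056) and with a pseudocount of 0.1 FPKM (0.055), keeping it in 3 of 11 alternatives.

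Among the genes not called, *UBE2C* was at 4585 and 4093 FPKM with NC siRNA and 3307 and 2587 FPKM with *YTHDF2* siRNA (log2 fold change -0.57, 95% interval -1.27 to 0.14, limma adjusted p = 0.26). *UBE2S* was at 68.7 and 54.8 against 95.3 and 65.7 FPKM (0.36, interval -0.50 to 1.22). *UBE2D3* was at 831 and 799.5 FPKM with NC siRNA, and the knockdown libraries disagreed on it, with 810.3 and 1250 FPKM. *ANAPC11* (205 and 162 against 363 and 394 FPKM) and *CUL4A* (7.48 and 6.81 against 18.7 and 13.8 FPKM) passed the rule of the study upward and not the adjusted p (0.087 and 0.12). Downward the same was true of *UBA3* (15.6 and 29.9 against 7.25 and 10.7 FPKM, adjusted p = 0.10) and *CUL2* (28.6 and 50.9 against 21.1 and 13.2 FPKM, 0.11). *CUL1* was at 13.6 and 19.8 against 12.4 and 4.78 FPKM (-0.98, adjusted p = 0.18), and *CUL3* at 26.6 and 28.1 against 18.8 and 15.8 FPKM (-0.64, adjusted p = 0.31). *UBA1* and *UBA6* had intervals of -1.07 to 0.73 and -0.76 to 1.05, so a change of up to about 2-fold in them was not detectable with 2 libraries a group.

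By class, the APC/C subunits summed to 661 and 650.3 FPKM with NC siRNA and to 1469 and 1446 FPKM with *YTHDF2* siRNA, mostly *ANAPC15* and *ANAPC11*. The other classes were lower, with UBE2 genes at 6481 and 5937 against 5132 and 5109 FPKM, cullins at 117 and 144 against 102 and 73.6 FPKM, and the 5 UBA genes summed above at 66.5 to 100.6 against 47.1 to 51.1 FPKM, and no sum was tested. The difference in the UBE2 sum lay in *UBE2C*. The 30 UBE2 genes other than *UBE2C* and *UBE2D3* summed to 1065 and 1044 FPKM with NC siRNA and to 1015 and 1271 FPKM with *YTHDF2* siRNA, and 18 of the 29 UBE2 genes tested had a log2 fold change above 0 (median 0.13), with 1 called higher and 0 lower by limma. Of the partners, *DCAF13*, which encodes a substrate receptor of CUL4 ligases, fell (105 and 102 against 25.0 and 30.5 FPKM, log2 fold change -1.87, limma adjusted p = 0.015), and of the other lists of partners no gene was called. Oocyte markers moved with the knockdown. Their sum over 9 listed genes was 488 to 765 FPKM with NC siRNA and 991 to 1927 FPKM with *YTHDF2* siRNA. All 8 tested were above 0 with a median log2 fold change of 1.22. Of these, 1 was called (*MOS*), and none was at 0 in any injected library. Of 6 cleavage embryo markers 5 were below 0 and 1 was called lower (*KLF5*). The calls of *MOS* and *KLF5* each held in 5 of 11 alternatives and that of *DCAF13* in 9, with the exceptions of no filter on low values and of leaving out NC replicate 1. The sum of cumulus and granulosa markers was 25.8 to 30.1 FPKM against 48.6 to 62.6 FPKM, with *FSHR* at 0 in all 4 libraries. The part of these differences in the results was not tested. In the stage series *ANAPC15* and *UBA2* were higher in both embryo stages than in the oocytes, *ANAPC16* was higher in 8-cell embryos than in the oocytes (1.20), and *ANAPC13* was lower in 8-cell than in 4-cell embryos. *UBE2T* was at 67.0, 69.3 and 81.5 FPKM in the oocytes, 46.6, 48.9 and 54.5 FPKM in 4-cell and 40.8, 44.4 and 41.3 FPKM in 8-cell embryos, below the oocytes in all 6 embryo libraries but by less than 2-fold on the fitted scale (-0.53 and -0.77, limma adjusted p = 0.026 and 0.0037). It was called lower at the 8-cell stage with either rescaling (-1.14 and -1.19) and at the 4-cell stage with equal FPKM sums (-1.06). Across the 46 genes tested in both sets, the change with *YTHDF2* siRNA and the change from the oocytes to the 8-cell stage correlated by a Pearson r of 0.052 and a Spearman rho of 0.018, given as a description across genes, which are not independent replicates.

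Several members stood at very different levels in the NC siRNA embryos and in the untreated embryos of the same stage. The 2 sets were sequenced and normalized apart, so injection, set and batch cannot be told apart and no test was made. Of 52 members that averaged 1 FPKM or more in either group, 15 lay above the untreated 8-cell libraries in both NC libraries and 18 lay below, which is 28.8% and 34.6%, beside 36.8% and 32.3% of all genes, so the shares were near those of the whole transcriptome. *UBE2C* took 69.0 to 70.7% of the summed FPKM of UBE2 genes with NC siRNA and 50.6 to 64.4% with *YTHDF2* siRNA, against 9.52 to 16.0% in the untreated 8-cell libraries. *UBE2D3* took 12.8 to 13.5% with NC siRNA. The sum of the other 30 UBE2 genes was 1044 to 1065 FPKM with NC siRNA and 943.5 to 986 FPKM in the untreated embryos. In this sum *UBE2V2* was far higher and *UBE2A*, *UBE2W* and *UBE2E3* lower with NC siRNA.

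**Figure D5:**
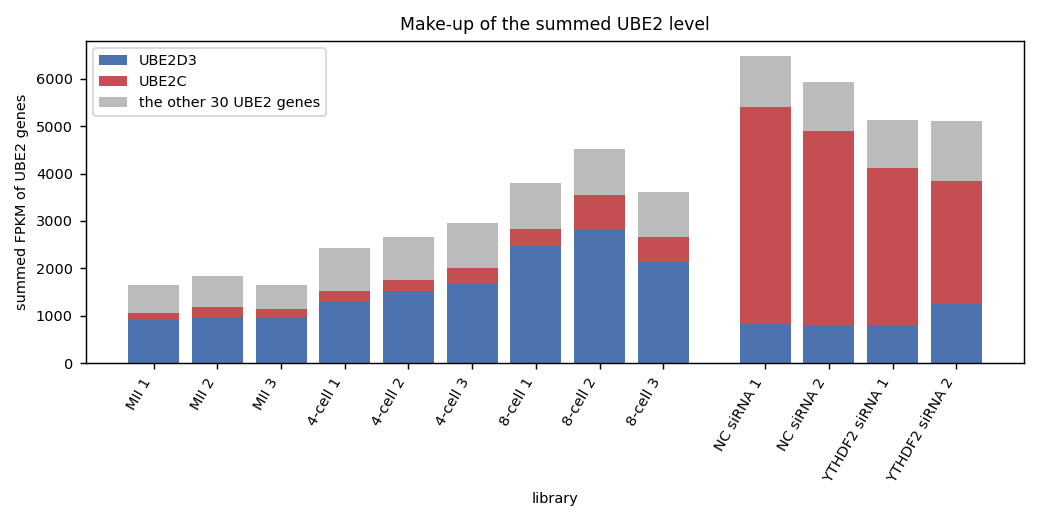
Summed FPKM of the 32 UBE2 genes in each of the 13 libraries (bars, from 0), split into *UBE2D3*, *UBE2C* and the other 30 genes. *UBE2D3* is the largest part in all 9 untreated libraries and *UBE2C* in all 4 injected ones, while the other 30 genes sum to between 515 and 1271 FPKM.

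The furthest of these members were *UBE2S*, whose mean with NC siRNA was 73.8 times that of the untreated 8-cell stage embryos, *CUL1* (61.7 times), *CUL2* (59.3 times) and *UBE2V2* (34.3 times). For *UBE2S* this means 68.7 and 54.8 FPKM beside 0.668 to 1.05 FPKM, so its low level in the untreated embryos was not found in the control embryos of the other set. *CUL1* and *CUL2*, at most 1.32 FPKM in any untreated library, were at 13.6 to 50.9 FPKM in the NC libraries. Among members that lay below were *ANAPC10* (0.294 times), *UBE2A* (0.325 times), *UBE2E3* (0.329 times) and *UBE2D3* (0.330 times). Their NC levels were 12.3 and 8.33 FPKM for *ANAPC10*, below all 3 MII libraries, 57.2 and 54.7 FPKM for *UBE2A*, between the oocytes and the untreated 4-cell stage embryos, and 35.4 and 21.5 FPKM for *UBE2E3*. The sum of cleavage embryo markers was 3278 to 4063 FPKM with NC siRNA and 344 to 1392 FPKM in the untreated 8-cell libraries. For oocyte markers it was 488 to 765 FPKM against 2524 to 3081 FPKM. For cumulus and granulosa markers it was 25.8 to 30.1 FPKM over 9 genes with NC siRNA. Over the 8 listed in the untreated 8-cell libraries it was 46.4 to 65.4 FPKM. Sperm markers summed to 12.7 to 21.6 FPKM over 4 genes with NC siRNA, to 5.13 to 27.0 FPKM with *YTHDF2* siRNA and to 0.301 to 0.746 FPKM over the 3 listed in the untreated 8-cell libraries, where *TNP2* was at 0 to 0.116 FPKM against 11.1 and 11.9 FPKM with NC siRNA. Their part in these differences was not tested.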

How the data were processed

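RNA-seq values of 13 libraries were used. The authors mapped to the ARS1 assembly (HISAT2), used unique alignments for HTSeq counting and deposited FPKM for each library, with untreated libraries taken from their previous studies. Injected values are rounded and were normalized apart. Whole fragments behind the untreated FPKM were recovered for 17917 of 17918 shared genes (within 0.02). Repeated names were dropped, and 57 of 57 members matched a symbol in the RefSeq gene table.

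Genes averaging 1 FPKM or more entered linear models of log2(FPKM + 1), made by limma 3.58.1 (R 4.3.3, eBayes with a trend, two-sided), with 9 untreated libraries in 1 fit and 4 injected in another. Fold changes are on this scale, which understates low genes. A call needs a Benjamini-Hochberg adjusted p under 0.05 over all genes of the fit and more than 2-fold. Members are named if called in any comparison, for their role, or if furthest among those not called. *UBE2V1*, *ANAPC4*, *ANAPC5* and *ANAPC10* fall outside this rule in the stages and were chosen after their values were seen. Results of 3 members and of some partner genes are not reported here, though the counts include them. Members and lists were chosen with earlier results of these data known. Alternatives were other scalings, a pseudocount of 0.1, filters, call rules, a replicate block, leaving out each library and, chosen after seeing the data, limma voom on fragments. The scripts were tested on simulated data. Python 3.11.15, pandas 2.3.3 and matplotlib 3.10.9 did the rest.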

Additional observations from a re-analysis of the deposited data

How the results depend on the processing

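No member changed direction while called under any alternative, and neither did the partner, substrate and marker genes that were called. Members not called in the fits above gained a call with 1 library left out (*ANAPC13* and *UBE2Q1* at the 4-cell, *CUL5* and *UBE2H* at the 8-cell stage, *UBE2B* for 8-cell against 4-cell, *CUL1*, *CUL2*, *UBE2G2* and *UBE2U* in the knockdown), with median-of-ratios rescaling (*ANAPC5* at the 4-cell, *UBE2L3* and *UBE2H* at the 8-cell stage), with equal FPKM sums (*UBE2H* at the 8-cell stage), with limma voom (*UBE2B* for 8-cell against 4-cell) or with the numbers crossed in the knockdown (*ANAPC11*, *CUL2*, *UBA3*, *UBE2D4* and *UBE2U*), beside those named in the results. The share of all genes tested is given in brackets. Equal FPKM sums gave 6 higher (5.95%) and 8 lower (10.1%) in 4-cell embryos, 8 (10.4%) and 7 (11.9%) in 8-cell embryos, 0 lower (2.01%) for 8-cell against 4-cell and 1 lower (5.66%) in the knockdown. Median-of-ratios rescaling gave 8 lower in 4-cell (8.78%) and 8 in 8-cell embryos (11.7%) against MII, 0 higher (2.07%) and 0 lower (2.56%) for 8-cell against 4-cell, and 0 (0.618%) and 0 (3.05%) in the knockdown. With no filter on low values 2 were lower in 4-cell embryos (2.05%), 0 higher (0.977%) and 0 lower (1.23%) for 8-cell against 4-cell, and 0 members and 0 of all 20357 genes were called in the knockdown by limma. A pseudocount of 0.1 left 1 lower in the knockdown (4.93%). The rule of the study gave 3 lower for 8-cell against 4-cell (4.28%) and 9 higher (9.48%) and 6 lower (15.3%) in the knockdown, and no fold limit gave 3 higher for 8-cell against 4-cell (3.06%). Leaving out 1 library each gave 12 to 14 higher and 1 to 5 lower in 4-cell embryos, 11 to 15 and 3 to 5 in 8-cell embryos, 0 to 1 and 0 to 2 for 8-cell against 4-cell, and 0 to 4 and 0 to 5 in the knockdown, beside 12.3 to 17.3% and 3.11 to 6.61%, 15.3 to 20.5% and 6.06 to 10.1%, 0.860 to 2.16% and 1.46 to 3.21%, and 0.454 to 4.37% and 2.21 to 10.3% of all genes, where a lone library is assumed to vary like the others. The cause of these moves was not tested.

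The replicate numbers did not pair the untreated libraries (correlation of deviations -0.51 to 0.20 for the same number, -0.37 to 0.51 for different numbers). With the replicate block 0 genes were lower for 8-cell against 4-cell (1.78% of all genes) and 0 were higher (0.709%) and 0 lower (3.48%) in the knockdown, and *UBE2L3* was not called at the 4-cell stage (adjusted p = 0.071). In the knockdown the same numbers correlated by -0.15, and a replicate block with the numbers crossed, added after seeing the data, gave 7 higher (6.25%) and 5 lower (12.5%). Where the depth of the injected libraries is unknown, no interval for counting error can be given for low genes.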
